A study of Mus musculus with 2 samples.

Results

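The genes of cholesterol synthesis, of its control by sterol regulatory element-binding proteins (SREBPs), and of cholesterol uptake, storage and export were compared between 2 pools of newborn mouse ovary RNA. The list named 31 genes in pathway order. A probe set, the group of array probes that reports 1 transcript, belonged to a gene when the annotation of the array platform gave that gene as its only symbol. By this rule 29 of the 31 genes, of 18193 genes named on the array, had 64 probe sets. Acat2 and Soat1 had none under that rule and were not analysed here. The symbols of all 29 genes matched RefSeq through the Entrez gene ID.

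Both pools came from mice with a SmoM2 allele, an activated form of Smoothened, the membrane protein that relays the hedgehog signal. The control pool was Amhr2(+/+)-SmoM2 and so carried no Cre, and the mutant pool was Amhr2(cre/+)-SmoM2, with Cre in place at 1 Amhr2 allele. Amhr2, the receptor of anti-Müllerian hormone, is expressed in somatic cells of the gonad, so Cre is made in those cells. SmoM2 activation, Cre itself and the altered Amhr2 allele cannot be told apart in this design. Ovaries were taken at 2 days of age. Each pool combined equal amounts of RNA from 8 mice and was hybridised to 1 array, so there is 1 array per group, no spread between animals and no test.

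Cells build cholesterol from acetyl-CoA. The first steps make mevalonate and then farnesyl pyrophosphate, and the later steps join this into squalene, close the sterol rings and trim lanosterol to cholesterol. When membrane sterol is low, Scap carries the SREBPs out of the endoplasmic reticulum, and their cleaved forms switch on the synthesis genes, whereas Insig proteins hold Scap back when sterol is plentiful. In ovary and adrenal gland, cholesterol is also the starting material of all steroid hormones.

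Values are probe-set signal intensities in arbitrary units. A probe set was taken as measured if its brighter signal was 80.7 or more, which is the median over both arrays. Of the 64 probe sets 51 were measured, and every one of the 29 genes had at least 1. Each gene is described by the measured probe set of greatest mean brightness, with its other probe sets beside it. For the log2 ratio of mutant over control, 22.2 (the 25th percentile over both arrays) was first added to each signal, so dim probe sets have their change understated. Folds are plain ratios of the 2 signals, written as "at least" against 80.7 where 1 signal lay below it. Genes were counted at 1.5-fold or more on the log2 ratio, a log2 value of 0.58. Signals of different probe sets were not set against each other, since brightness depends on the probes. The summed signals given for marker lists therefore follow mainly their brightest probe sets.

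Of the 17 measured genes of cholesterol synthesis, 8 were at least 1.5-fold higher in mutant ovaries, 9 lay within 1.5-fold and 0 passed it downward. Of the 12 measured genes of the control, uptake and storage, and export groups, 1 passed 1.5-fold upward (Lipa), 1 downward (Npc1), and 10 lay within it. Of the 29 genes, 9 were at least 1.5-fold higher in the mutant pool (31%) and 1 was at least 1.5-fold lower (3.45%). Across the 12308 measured genes of the array, 9.32% were higher and 7.90% lower by the same measure. At 2-fold the numbers were 5 higher and 0 lower, against 3.21% and 1.40% of all measured genes. The median log2 ratio was 0.39 for the 29 genes and -0.02 for all measured genes. In all, 23 of the 29 log2 ratios were above 0, against 47.5% of all measured genes. Of the 9 genes that were higher, 8 were synthesis enzymes (Hmgcs1, Idi1, Fdps, Sqle, Lss, Cyp51, Msmo1 and Dhcr7) and 1 was the lysosomal lipase gene Lipa. The gene that was lower was Npc1. In whole-ovary RNA, a change in the number of cells of a type and a change in RNA per cell cannot be told apart.

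**Figure D1:**
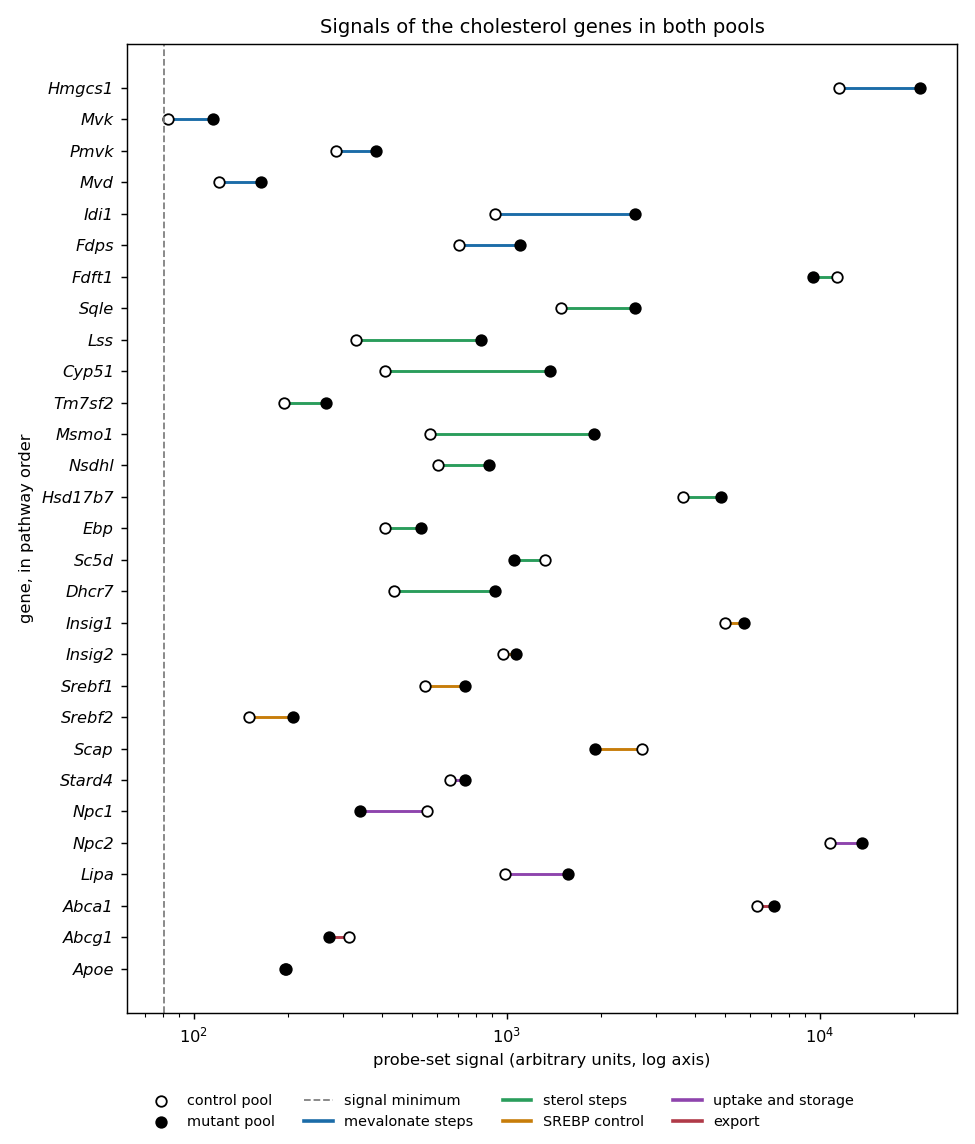
Signal of each gene's brightest measured probe set in the control pool (open circles) and the mutant pool (filled circles), on a log axis in arbitrary units, with genes in pathway order, line colours for the gene groups and a dashed line at the signal minimum of 80.7. Msmo1 and Cyp51 show the widest gaps to the right and Npc1 the widest to the left, and positions can be compared within a gene only.

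The probe sets of 1 gene show how far probes disagree on the same 2 arrays. This is not the spread between animals, pools or hybridisations, which these data cannot give. Over 5118 genes of the array with several measured probe sets, the SD of the log2 ratio within a gene was 0.385. For the 13 genes of the list with several measured probe sets, it was 0.433 over 35 probe sets. In 8 of these 13 genes all measured probe sets lay on the same side of 0, and in the other 5 (Mvd, Sc5d, Stard4, Npc2 and Lipa) they did not. Counted by probe set, 22 of the 51 measured ones passed 1.5-fold upward and 1 passed it downward, against 8.81% and 9.87% of all measured probe sets with 1 gene name. The other 16 genes rest on 1 measured probe set.

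The mevalonate steps, from acetyl-CoA to farnesyl pyrophosphate, were all on the higher side in the mutant pool on their brightest probe sets. Their 6 measured genes had a median log2 ratio of 0.51, with 3 at least 1.5-fold higher and 0 lower to that degree. Hmgcs1 (Entrez gene 208715), the cytosolic synthase of HMG-CoA, the precursor of mevalonate, gave a signal of 11563 in control and 20883 in mutant ovaries, 1.81-fold higher (log2 ratio 0.85). Its other 4 measured probe sets read 6579 and 13300, 7235 and 14774, 1044 and 1758, and 48.2 and 116.7 in control and mutant pools, with log2 ratios of 1.01, 1.03, 0.74 and 0.98. All 5 log2 ratios of Hmgcs1 were past 1.5-fold, but for the dimmest probe set, with its control signal under the minimum, the fold is only at least 1.45.

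Idi1 (319554) encodes the isomerase that makes dimethylallyl pyrophosphate, 1 of the 2 isoprene units of the pathway. Its signal was 920.8 in control and 2576 in mutant ovaries, 2.80-fold higher (log2 ratio 1.46). Its second probe set read 244.8 and 1032 (log2 ratio 1.98). Idi1 showed the largest difference of the mevalonate steps on both probe sets. Fdps (110196), which condenses the isoprene units to farnesyl pyrophosphate, was 702.6 in control and 1102 in mutant ovaries, 1.57-fold higher on its only measured probe set (log2 ratio 0.63).

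The 3 kinase and decarboxylase steps between mevalonate and isopentenyl pyrophosphate differed less. Mvk, mevalonate kinase, was 82.8 in control and 115.6 in mutant ovaries (log2 ratio 0.39), just above the signal minimum. Pmvk, phosphomevalonate kinase, was 285.7 and 382.1 (log2 ratio 0.39). Mvd, the decarboxylase, was 121.0 and 164.0 on 1 probe set (log2 ratio 0.38) and 113.0 and 78.9 on the other (-0.42). The first of these probe sets may also detect other transcripts. None of the 3 reached 1.5-fold, and the 2 probe sets of Mvd pointed in opposite directions by about the same amount.

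The sterol steps, from farnesyl pyrophosphate to cholesterol, included the 2 highest log2 ratios of the list by brightest probe set, those of Msmo1 and Cyp51. Among 11 measured genes, 5 passed 1.5-fold upward and 0 downward, with a median log2 ratio of 0.52 and a range from -0.33 to 1.70. The entry to this branch did not share the direction of the steps around it. Fdft1, squalene synthase, was 11378 in control and 9550 in mutant ovaries (log2 ratio -0.25), on a probe set that may also detect other transcripts. Its second measured probe set read 1333 and 948.8 (-0.48). Both lay under 0 and within 1.5-fold. The next enzyme, squalene epoxidase (Sqle, 20775), adds the oxygen that becomes the hydroxyl group of cholesterol. It was 1493 in control and 2569 in mutant ovaries, 1.72-fold higher on its single probe set (log2 ratio 0.77).

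Lanosterol synthase (Lss, 16987), which folds the squalene chain into the sterol rings, was 331.3 in control and 830.7 in mutant ovaries, 2.51-fold higher (log2 ratio 1.27). Its other 2 measured probe sets read 240.7 and 324.5 (log2 ratio 0.40), and 67.4 and 140.7 (0.86, at least 1.74-fold). All 3 were higher in mutant ovaries, but only 2 of them passed 1.5-fold. Cyp51 (13121), the lanosterol demethylase, was 410.3 in control and 1381 in mutant ovaries, 3.37-fold higher (log2 ratio 1.70). Its other 2 probe sets read 367.2 and 1118 (log2 ratio 1.55), and 40.8 and 128.4 (1.26, at least 1.59-fold). Cyp51 thus exceeded 2-fold in log2 ratio on each of its 3 probe sets.

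Msmo1 (66234), the methyl sterol oxidase that starts removal of the methyl groups next to the sterol hydroxyl, had, with Cyp51, the highest log2 ratio of the 29 genes. Its signal was 567.7 in control and 1899 in mutant ovaries, 3.34-fold higher (log2 ratio 1.70), on its only measured probe set. Dhcr7 (13360), the reductase of the last step to cholesterol in 1 branch of the pathway, was 436.6 in control and 916.4 in mutant ovaries, 2.10-fold higher (log2 ratio 1.03). It has a single probe set on the array. Lss, Cyp51, Msmo1 and Dhcr7, together with Idi1, made up the 5 genes at 2-fold or more.

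The remaining sterol steps lay within 1.5-fold. Nsdhl, the sterol dehydrogenase that acts after Msmo1, was 605.9 in control and 879.6 in mutant ovaries (log2 ratio 0.52), the nearest to the threshold from below. Tm7sf2, a sterol reductase, was 193.9 and 265.1 (log2 ratio 0.41). Ebp, the sterol isomerase, was 408.4 and 531.4 (log2 ratio 0.36). These 3 genes have 1 probe set each, and their differences are about as large as the SD within genes. Hsd17b7, the keto-reductase of the demethylation complex, was 3661 and 4846 (log2 ratio 0.40) on a probe set that may also detect other transcripts, and 229.1 and 247.8 (0.10) on its other measured one. Sc5d, the sterol desaturase, was 1329 in control and 1055.5 in mutant ovaries (log2 ratio -0.33), while its second measured probe set read 222.3 and 380.2 (0.72). The 2 measured probe sets of Sc5d therefore disagreed in direction.

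**Figure D2:**
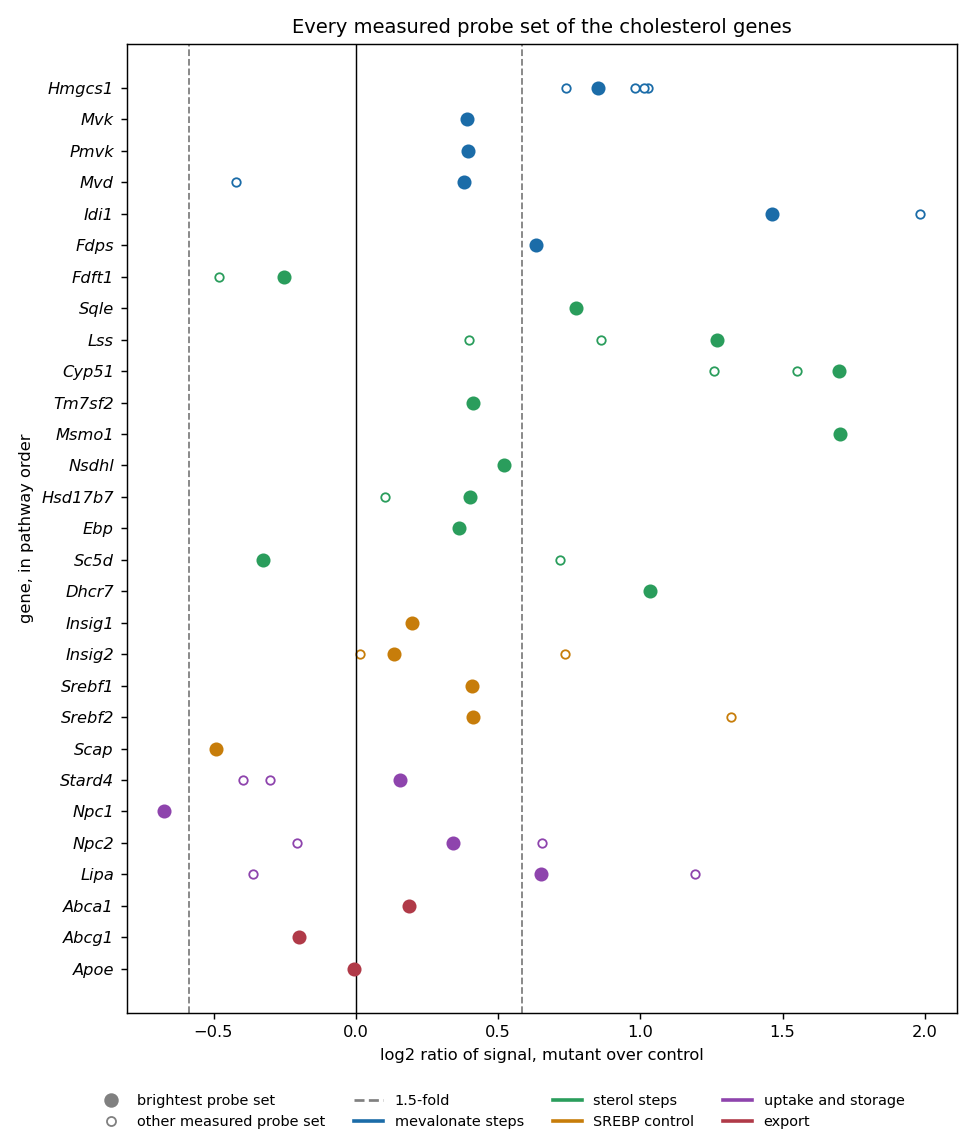
Log2 ratio of mutant over control signal for all 51 measured probe sets of the 29 genes, in pathway order, with large filled circles for the brightest probe set of each gene and small open circles for the others and dashed lines at 1.5-fold. All probe sets of Hmgcs1, Idi1 and Cyp51 lie beyond the right dashed line, while those of Mvd, Sc5d, Stard4, Npc2 and Lipa lie on both sides of 0.

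Since several of these enzyme genes were higher together, the proximal promoters of some are printed here. The shown stretch is the 250 bases before the RefSeq gene start in the GRCm38.p6 build, 5′ to 3′ on the gene's strand. The first 5 genes had higher log2 ratios and a single promoter in the RefSeq table, and Insig1 and Abca1, both within 1.5-fold, stand beside them. Capitals mark 3 motifs, searched on both strands: TCACNCCAC, a common form of the sterol regulatory element, the CCAAT box, bound by NF-Y, which acts beside SREBPs at many sterol genes, and GGGCGG, the GC box bound by Sp1. The 3 searches did not overlap each other in any of these promoters. The regions are chr13:119690101-119690350 on the plus strand for Hmgcs1, chr13:8885356-8885605 (plus) for Idi1, chr10:76531355-76531604 (plus) for Lss, chr5:4104698-4104947 (minus) for Cyp51, chr8:64733579-64733828 (minus) for Msmo1, chr5:28071162-28071411 (plus) for Insig1 and chr4:53159896-53160145 (minus) for Abca1.
Hmgcs1: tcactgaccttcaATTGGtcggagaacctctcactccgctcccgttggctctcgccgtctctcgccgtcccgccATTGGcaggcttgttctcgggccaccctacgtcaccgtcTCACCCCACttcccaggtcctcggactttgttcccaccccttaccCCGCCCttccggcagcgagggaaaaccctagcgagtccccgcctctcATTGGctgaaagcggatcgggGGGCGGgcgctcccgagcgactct
Idi1: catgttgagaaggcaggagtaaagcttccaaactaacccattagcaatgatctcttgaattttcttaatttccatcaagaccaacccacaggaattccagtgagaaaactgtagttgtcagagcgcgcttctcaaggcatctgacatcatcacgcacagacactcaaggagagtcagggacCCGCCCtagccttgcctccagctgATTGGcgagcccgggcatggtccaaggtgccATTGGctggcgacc
Lss: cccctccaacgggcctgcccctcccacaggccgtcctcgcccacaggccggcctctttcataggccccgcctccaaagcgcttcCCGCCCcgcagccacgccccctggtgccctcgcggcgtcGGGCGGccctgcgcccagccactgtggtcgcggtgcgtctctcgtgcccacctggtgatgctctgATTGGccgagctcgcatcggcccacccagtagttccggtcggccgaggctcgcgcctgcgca
Cyp51: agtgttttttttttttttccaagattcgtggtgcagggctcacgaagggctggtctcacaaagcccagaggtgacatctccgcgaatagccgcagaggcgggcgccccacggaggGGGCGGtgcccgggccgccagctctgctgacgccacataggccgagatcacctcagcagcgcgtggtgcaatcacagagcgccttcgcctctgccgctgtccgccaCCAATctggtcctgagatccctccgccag
Msmo1: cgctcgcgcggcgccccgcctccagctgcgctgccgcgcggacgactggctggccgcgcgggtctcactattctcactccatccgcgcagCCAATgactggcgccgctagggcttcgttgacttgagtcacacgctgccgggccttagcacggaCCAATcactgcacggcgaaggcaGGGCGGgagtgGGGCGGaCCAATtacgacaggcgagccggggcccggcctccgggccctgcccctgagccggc
Insig1: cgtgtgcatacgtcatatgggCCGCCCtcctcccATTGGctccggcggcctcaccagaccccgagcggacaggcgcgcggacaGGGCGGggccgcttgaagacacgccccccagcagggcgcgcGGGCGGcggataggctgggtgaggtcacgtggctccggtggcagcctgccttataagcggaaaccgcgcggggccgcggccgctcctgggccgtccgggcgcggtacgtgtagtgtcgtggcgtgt
Abca1: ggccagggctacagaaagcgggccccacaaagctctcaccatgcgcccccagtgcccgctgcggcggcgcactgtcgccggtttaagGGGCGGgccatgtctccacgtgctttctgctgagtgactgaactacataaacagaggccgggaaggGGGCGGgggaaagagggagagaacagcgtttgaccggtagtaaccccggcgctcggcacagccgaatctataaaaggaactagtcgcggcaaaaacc

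The Hmgcs1 promoter held 1 match to the sterol regulatory element, starting at position -137 from the gene start, and 3 CCAAT boxes at -237, -176 and -45. Msmo1 also held 3 CCAAT boxes, Idi1 held 2, and Lss, Cyp51 and Insig1 held 1 each, whereas Abca1 held 0. The RefSeq table had promoters for 25 of the 31 genes, Acat2 and Soat1 included. A CCAAT box was found in the promoters of 21 of these 25 genes (84.0%), and in 40.4% of the 9967 measured genes with a promoter in the table and 33.8% of all 32851 promoters. All 7 genes with a promoter that were at least 1.5-fold higher had one, but so did most of the other genes. Only Abca1, Acat2, Apoe and Scap had none. The GC box was also found in 21 of the 25 genes and in 6 of those 7 higher genes. It was found in 63.7% of measured genes and 32.7% of all promoters. The sterol regulatory element in these letters was found in Hmgcs1 alone of the 25 genes, in 1.28% of measured genes and in 1.05% of all promoters. These are letter matches, and no binding was measured.

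None of the 5 genes that control the pathway reached 1.5-fold on its brightest probe set, and their median log2 ratio was 0.20. Srebf2 (20788) encodes SREBP2, the main activator of cholesterol genes. It was 150.2 in control and 207.3 in mutant ovaries (log2 ratio 0.41), and 38.7 and 129.8 on its second probe set (1.32, at least 1.61-fold). Srebf1, whose protein acts mainly on fatty acid genes, was 549.5 and 735.8 (log2 ratio 0.41). Both SREBP genes were on the higher side, and for Srebf2 the size depended on the probe set.

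Scap, the sterol sensor that escorts the SREBPs, was 2698 in control and 1914 in mutant ovaries, 1.41-fold lower (log2 ratio -0.49). Insig1, a retention protein whose gene is itself switched on by SREBPs, was 4988 and 5718 (log2 ratio 0.20). Insig2, its paralog, was 975.7 and 1073 (log2 ratio 0.13), and its other 2 probe sets read 423.3 and 718.6 (0.73), and 318.0 and 321.5 (0.01). Insig1 therefore differed by less than the SD within genes.

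The measured genes of the uptake and storage group, which act in intracellular transport and release of cholesterol, went both ways. Soat1, also listed in this group, was not analysed. Among the 4 measured genes, 1 passed 1.5-fold upward and 1 downward, with a median log2 ratio of 0.25. When probe sets that may detect more than 1 transcript were left out, the median was -0.03, so the group had no settled direction. Npc1 (18145), the membrane protein that moves cholesterol out of the late endosome and lysosome, was 556.1 in control and 340.6 in mutant ovaries, 1.63-fold lower (log2 ratio -0.67) on its single probe set. Npc2, its soluble partner in the lysosome, was 10816 and 13699 (log2 ratio 0.34), 3766 and 3256 (-0.21), and 78.9 and 136.8 (0.65) on its 3 measured probe sets. The partners thus differed in direction on the brightest probe sets, while the probe sets of Npc2 also differed among themselves.

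Lipa (16889), the lysosomal acid lipase that frees cholesterol from esters taken up with lipoproteins, was 991.7 in control and 1571 in mutant ovaries, 1.58-fold higher (log2 ratio 0.65). This probe set may also detect other transcripts. The other 2 probe sets of Lipa read 336.5 and 797.5 (log2 ratio 1.19), and 100.1 and 73.0 (-0.36). The dimmest of the 3 probe sets therefore pointed the other way. Stard4, a soluble sterol carrier, was 657.7 and 735.4 (log2 ratio 0.16), 403.6 and 301.2 (-0.40), and 357.4 and 285.7 (-0.30). Its probe sets straddled 0 and all stayed within 1.5-fold.

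The export genes were close to equal in both pools. Abca1 (11303), the transporter that loads cholesterol on apolipoprotein A-I, was 6301 in control and 7167 in mutant ovaries (log2 ratio 0.19). Abcg1, which passes sterol to mature lipoprotein particles, was 313.5 and 270.4 (log2 ratio -0.20). Apoe, an apolipoprotein that many cells secrete with cholesterol, was 197.0 and 196.1 (log2 ratio -0.01). Their median was -0.01, none reached 1.5-fold, and each rested on 1 measured probe set. Abca1 and Abcg1 are textbook targets of the sterol-activated LXR receptors.

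**Figure D3:**
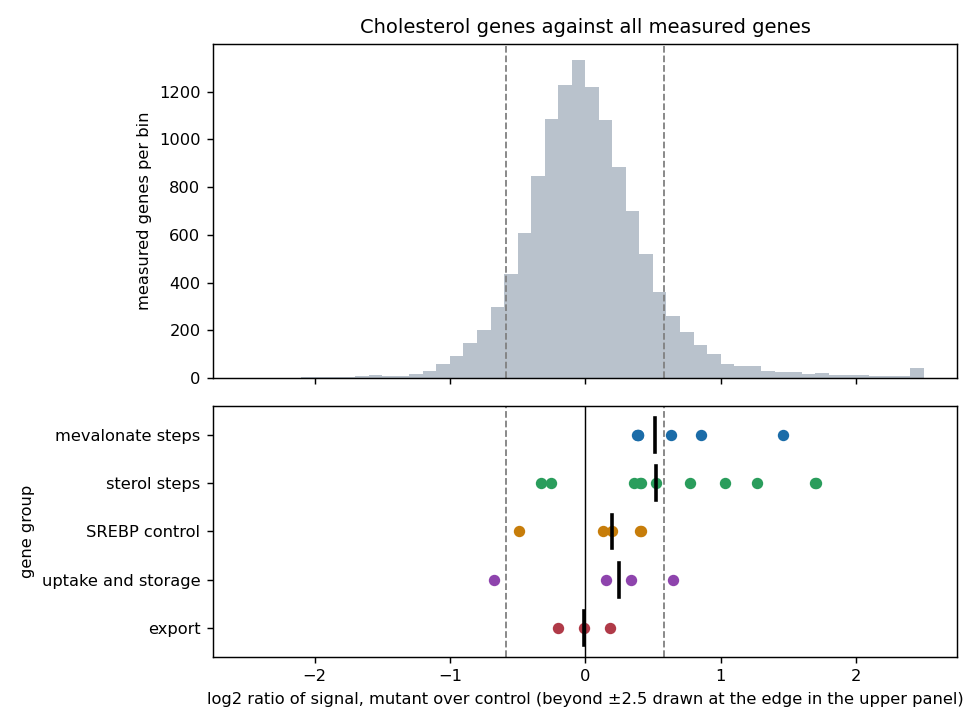
Upper panel, number of the 12308 measured genes per bin of the log2 ratio of mutant over control signal, and lower panel, the 29 cholesterol genes by group on the same axis, with points for genes, black bars for group medians and dashed lines at 1.5-fold. The medians of the mevalonate and sterol steps sit at 0.51 and 0.52, and that of the export genes at -0.01.

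Among 34 other cholesterol genes, which include receptors, oxysterol enzymes and sterol-binding proteins, 27 had a named probe set and 22 were measured. Upward, 3 passed 1.5-fold, and downward 1, with a median log2 ratio of 0.12. Scarb1, the receptor that takes up cholesterol from high-density lipoprotein, was 834.9 in control and 4328 in mutant ovaries, 5.18-fold higher, and all 3 of its probe sets had log2 ratios of at least 2.13. Osbpl1a, an oxysterol-binding protein, was 1.73-fold higher (1113 and 1925), with a log2 ratio of 0.44 on its other measured probe set. Nceh1, a cholesteryl ester hydrolase, was 300.7 and 486.3 (log2 ratio 0.66), but its other measured probe set gave -0.66. Lrp8, an apolipoprotein E receptor, was 134.6 and 53.9, at least 1.67-fold lower. The SREBP-cleaving proteases Mbtps1 and Mbtps2 had log2 ratios of 0.11 and 0.24, but the second measured probe set of Mbtps1 gave -0.70.

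Genes of fatty acid synthesis, which SREBPs can also drive, were on the higher side as well. SREBP activity was not measured, and its part in these differences was not tested. All 12 listed genes were measured. On their brightest probe sets all had log2 ratios above 0, with a median of 0.69, and 7 were at least 1.5-fold higher. With the median over all measured probe sets of a gene, the median of the list was 0.58. Scd2 had a log2 ratio of 0.27 on its brightest probe set and -0.31 on its other measured one. Fads2, a fatty acid desaturase, was 404.6 in control and 1553 in mutant ovaries, 3.84-fold higher, with log2 ratios of at least 1.34 on all 3 measured probe sets. Me1, the malic enzyme that supplies NADPH, was 2.50-fold higher on its brightest probe set, and both of its probe sets passed 2-fold. Scd1, another desaturase, was 127.4 and 609.9 (log2 ratio 2.08), while its second measured probe set gave -0.91. The elongase gene Elovl6 and the desaturase gene Fads1 were 2.55-fold and 2.41-fold higher, but the second measured probe set of each had a log2 ratio of only 0.39 and 0.16. Acly, which makes cytosolic acetyl-CoA, and the elongase gene Elovl5 were 1.68-fold and 1.55-fold higher. However, 1 of the 3 measured probe sets of Acly had a log2 ratio of -0.11, and the second of Elovl5 had 0.53. Fasn and Acaca, the fatty acid synthase and acetyl-CoA carboxylase genes, had log2 ratios of 0.41 and 0.34.

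Genes that turn cholesterol into steroid hormones were also compared. Of 8 measured genes of 14 listed, 5 were at least 2-fold higher, and the median log2 ratio was 1.93. Star, which moves cholesterol into mitochondria, was 164.0 in control and 2945 in the mutant pool. Cyp11a1, which makes pregnenolone from cholesterol, was 29.6 and 5700, at least 70.6-fold higher, although its second measured probe set had a log2 ratio of 0.26. Cyp17a1, Hsd3b1 and Fdx1 were the other 3 genes at 2-fold. Nr5a1, Cyb5a and Tspo lay within 1.5-fold, with log2 ratios of 0.53, -0.01 and -0.14.

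**Figure D4:**
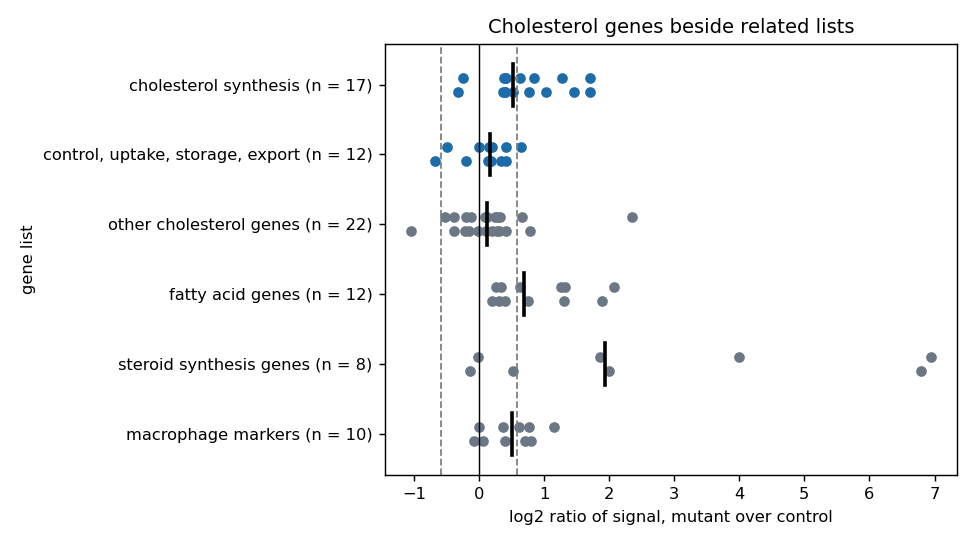
Log2 ratio of mutant over control signal for each measured gene of the cholesterol list, split into synthesis enzymes and the remaining genes, and of 4 related lists, with points for genes, black bars for medians and dashed lines at 1.5-fold. The medians are 0.52 for synthesis, 0.17 for the remaining cholesterol genes, 0.12 for other cholesterol genes, 0.69 for fatty acid genes, 1.93 for steroid synthesis and 0.51 for macrophage markers.

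Marker genes of the cells in the ovary also differed between the pools. The 4 measured of 5 pregranulosa markers had a summed signal of 21094 in control and 10525 in mutant ovaries, and all 4 had log2 ratios below 0. One of them is Amhr2, the gene whose allele carries Cre in the mutant, and without it the sum was 12503 and 7040. The 5 germ cell markers summed to 28673 and 18942, and all 5 had log2 ratios below 0. The 5 stroma markers summed to 22848 and 36716, with 4 at least 1.5-fold higher. Pdgfra gave 7299 and 16038 of these sums, and Dcn was close to equal at 9566 and 9325. All measured probe sets of Pdgfra and Col1a1 passed 1.5-fold. However, Tcf21 had a log2 ratio of -0.11 on its second measured probe set, and Nr2f2 had 0.40 on the lowest of its 6. The 10 measured of 11 macrophage markers summed to 5863 and 9501, with 5 at least 1.5-fold higher. Csf1r alone gave 3274 and 5611 of these sums. Csf1r and C1qb, both counted as higher, had log2 ratios of 0.34 and 0.24 on their lowest measured probe sets. Adgre1, Cd68 and C1qc were close to equal, with log2 ratios of -0.004, 0.06 and -0.08. Of the 6 adrenal cortex markers 5 were measured, and their sum was 612.6 and 1202, with 3 of the 5 under the signal minimum in control and 0 in mutant ovaries. Nr0b1, close to equal, gave 415.5 and 423.8 of these sums, and the other 4 were at least 1.5-fold higher by log2 ratio. No adipocyte marker was measured, and of the 5 hepatocyte markers only Alb was, at 48.8 and 93.0. The part of these cell types in the cholesterol gene differences was not tested.

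The signal minimum was reached by 50.3% of the control and 49.8% of the mutant signals. The array's Gapdh probe sets had a 3' over 5' signal ratio of 3.28 in control and 4.98 in mutant RNA, and those of beta-actin 8.48 and 10.5. Of the 18 spiked control probe sets, 17 were brighter on the mutant array, with a median log2 ratio of 0.23 and a maximum of 0.39. The median log2 ratio of the 29 cholesterol genes was as large as that maximum, and the medians of the control, uptake and storage, and export groups lay below it. The part of RNA quality and hybridisation in the differences was not tested.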

How the data were processed

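Total RNA of day 2 ovaries was pooled per genotype and hybridised to Affymetrix mouse arrays of 45101 probe sets, 1 array per group, per the labels' protocols. The authors deposited 1 column of probe-set signal intensities per array on a linear scale, and the submitters' processing notes name GCOS. Its other settings were not stated in the sources used here. Trimming 2% of probe sets at each end left a mean of 500.003 per array, so the arrays share a scale, and the intensities were used without further background correction or scaling. The values lie between 0.1 and 50465. The annotation gave 1 gene symbol to 34945 probe sets, several to 932, and did not list 9211. The latter 2 classes are unnamed here. Of the rest, 20576 were measured, for 12308 genes. The 64 control probe sets of the array stayed out of gene counts.

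Named genes are all cholesterol genes and, in the other lists, measured genes at 1.5-fold or among the 4 largest log2 ratios. A few further genes (Mbtps1, Mbtps2, Fasn, Acaca, Scd2, Nr5a1, Cyb5a, Tspo, Dcn, Nr0b1, Adgre1, Cd68 and C1qc) were named after their values were seen. So was Alb. The genes, lists and settings were chosen with earlier results of these data known. Each result was recomputed under 9 alternatives. With 1 array per group no p-value was computed, and the number of arrays limits the precision. Scripts ran in Python 3.11.15 with numpy 2.4.6 and pandas 2.3.3 and were tested on simulated data.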

Additional observations from a re-analysis of the deposited data

How the results depend on the processing

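No paired analysis was possible because each group holds 1 array. The 9 alternatives changed the signal minimum, the pseudocount, the choice of probe set, the scaling, or raised low values to the minimum. The count of cholesterol genes at least 1.5-fold higher stayed between 8 and 10 and the count lower stayed at 1. Each of the 9 genes counted as higher, and Npc1 as lower, remained beyond 1.5-fold in every setting that gave it a value. Msmo1 had no value without probe sets shared between transcripts. Over those settings Idi1 ranged from 1.41 to 1.72 in log2 ratio, Cyp51 from 1.55 to 1.75, Fdps from 0.59 to 0.68 and Lipa from 0.62 to 1.19. The share of all measured genes at least 1.5-fold higher ranged from 6.67% to 11.0%. Of 250 alternative values of single genes, 242 moved by less than the SD within genes, 8 moved by more, and 0 genes past 1.5-fold changed sign. Part of this agreement is fixed by construction. A changed signal minimum left the ratio of every gene it kept the same. The 16 genes with 1 measured probe set could not change with the choice of probe set. Raising low values equals a pseudocount of 0 here, since no brightest probe set lay under the minimum.

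Medians of gene groups were compared with the SD within genes divided by the root of the number of genes. That value only sets a scale for how far a median moved and is not an error between pools. With a higher signal minimum, the 75th percentile of 442.4, the median was 0.85 for the mevalonate steps, where 3 genes were left, and 0.65 for the sterol steps. With the median over all measured probe sets of a gene, it was 0.019 for uptake and storage and 0.0054 for the other cholesterol genes. Without probe sets shared between transcripts, the uptake and storage median turned to -0.026. In these cases fewer genes or other probe sets entered by construction. Genes that changed side or size with the probe set were Mvd, Lss, Sc5d, Srebf2, Stard4, Npc2 and Lipa. The signals of Mvk lie close to the signal minimum.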

Other observations

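Of the 64 probe sets of the cholesterol genes, 13 were too dim to count as measured, and their highest signal was 71.7. They belonged to Mvk, Fdps, Fdft1, Msmo1, Hsd17b7, Sc5d, Scap, Npc2, Abca1 and Abcg1, and each of these genes has another probe set that was measured. The dim probe set of Msmo1 read 2.3 in control and 26.0 in mutant ovaries, and the dim one of Npc2 read 43.8 and 3.2. No fold is given for them, since both signals lie under the minimum.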
